A study of Mus musculus with 62 samples.

Results

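The 10 genes described here carry the insulin signal and the AMP-activated protein kinase (AMPK) signal in muscle: Insr, Irs1, Irs2, Pik3r1, Akt2, Tbc1d1, Tbc1d4, Prkaa2, Prkab2 and Prkag3. A peak was counted for a gene when the deposited annotation, which takes the gene with the nearest start site, gave it that gene's name, whatever the distance. By that rule 1242 of 596282 peaks belonged to the 10 genes across 16 peak lists, 749 of 297760 for acetylated lysine 27 of histone H3 (H3K27ac, a mark of active promoters and enhancers) and 493 of 298522 for dimethylated lysine 4 (H3K4me2, a mark of open promoters and of active or primed enhancers). They also held 23 of the 5334 regions deposited as differing in H3K27ac after wheel running or in the transgene.

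The histone lists covered 8 groups of male mouse muscle, with 2 libraries per group and mark. Extensor digitorum longus (EDL), quadriceps (Quad), soleus (Sol) and diaphragm (Dia) came from untreated C57BL/6J mice, bought at 7 to 8 weeks of age. Quadriceps of exercised C57BL/6J mice (Ex) came after 4 weeks of voluntary wheel running that began at 8 weeks of age, and was taken 4 to 6 h after the last bout, with sedentary quadriceps (Sed) as control. Quadriceps of transgenic mice (mTg) that express Pgc1a from the muscle creatine kinase promoter was set against wild-type littermates (Wt). EDL, Sol and Dia samples pooled 3 animals each, and a quadriceps sample was 1 muscle of 1 animal. Whole muscle was used, so each value sums fibres and the other cells of the tissue, and fewer cells of a type cannot be told apart from less of the mark per cell.

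Insulin binds its receptor, which phosphorylates the insulin receptor substrates. These recruit phosphoinositide 3-kinase, whose product activates AKT, and AKT phosphorylates the Rab GTPase-activating proteins TBC1D4 and TBC1D1, which otherwise hold the glucose transporter GLUT4 inside the cell. AMPK, a kinase of one catalytic (α) and 2 regulatory (β and γ) subunits, senses falling energy charge during contraction and acts on the same TBC1D proteins. The γ3 subunit encoded by Prkag3 is known as the form typical of glycolytic muscle.

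The sequences under the acetylated regions that the results turn on are shown first. Each is the stretch of 195 bases called accessible in control quadriceps by the assay for transposase-accessible chromatin (ATAC), read from the plus strand of mm10 (GRCm38.p6), and capitals mark letters that match a motif searched for on both strands. The upstream region of Prkag3 at chr1:74754331-74754525 lay in the region lower in both Ex and mTg, and held the E-box CAGCTG.
Prkag3 upstream: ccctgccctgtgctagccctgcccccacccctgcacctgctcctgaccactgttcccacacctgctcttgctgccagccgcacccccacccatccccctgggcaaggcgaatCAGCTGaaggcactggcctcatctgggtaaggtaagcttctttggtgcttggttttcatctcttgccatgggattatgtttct
The Tbc1d4 stretch at chr14:101517964-101518158, in intron 1, lay in the region lower in Ex and higher in mTg, and held none of the motifs.
Tbc1d4 intron 1, opposite directions: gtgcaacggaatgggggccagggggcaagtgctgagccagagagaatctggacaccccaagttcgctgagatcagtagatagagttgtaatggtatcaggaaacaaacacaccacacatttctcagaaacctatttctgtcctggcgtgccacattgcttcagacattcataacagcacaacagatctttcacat
A further Tbc1d4 stretch of intron 1, at chr14:101532392-101532586, lay in a region higher in mTg and matched the MEF2 pattern.
Tbc1d4 intron 1, higher in mTg: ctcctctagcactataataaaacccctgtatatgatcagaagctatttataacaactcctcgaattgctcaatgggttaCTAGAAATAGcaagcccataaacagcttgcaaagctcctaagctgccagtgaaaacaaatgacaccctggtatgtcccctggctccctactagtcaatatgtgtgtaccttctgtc
The intergenic Pik3r1 stretch at chr13:101994884-101995078 lay in the region with the largest difference between mTg and Wt among the 10 genes, and held the E-box.
Pik3r1 intergenic: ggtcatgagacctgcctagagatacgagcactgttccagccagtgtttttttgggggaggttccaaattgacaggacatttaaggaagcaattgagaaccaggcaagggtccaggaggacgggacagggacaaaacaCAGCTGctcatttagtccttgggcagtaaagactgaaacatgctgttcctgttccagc
The Prkaa2 stretch at chr4:105111856-105112050, upstream of the start site in the region lower in Ex, held the FOXO letters GTAAACA and the E-box at 2 places.
Prkaa2 upstream: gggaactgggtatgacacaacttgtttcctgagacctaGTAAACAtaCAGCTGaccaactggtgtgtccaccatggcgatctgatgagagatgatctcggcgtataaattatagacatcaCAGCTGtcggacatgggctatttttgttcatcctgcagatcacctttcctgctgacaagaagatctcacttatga
The Irs2 stretch at chr8:11024989-11025183, also lower in Ex, held the E-box and the estrogen-related receptor (ERR) letters AAGGTCA.
Irs2 upstream: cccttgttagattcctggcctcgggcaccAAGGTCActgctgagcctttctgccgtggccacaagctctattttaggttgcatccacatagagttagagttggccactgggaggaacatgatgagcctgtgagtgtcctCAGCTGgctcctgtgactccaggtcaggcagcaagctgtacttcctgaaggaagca

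Over all 18 ATAC stretches inside the differing regions of the 10 genes, the E-box was in 6, MEF2, ERR and the NFAT letters TGGAAA in 2 each, FOXO in 1 and the AP-1 letters TGANTCA in 0. Over all 44911 ATAC peaks of control quadriceps the shares were 21.1% for the E-box, 4.84% for MEF2, 4.98% for ERR, 17.9% for NFAT, 2.89% for FOXO and 10.2% for AP-1. Over 32851 RefSeq promoters of 300 bases the shares were 16.3%, 3.69%, 4.72%, 21.4%, 3.65% and 7.81% in the same order. None of these 6 motif patterns is a subset of another, and a match of letters is no evidence that a factor was bound.

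Depth was 11.7 to 24.2 M tags for H3K27ac, 6.41 to 22.7 M for H3K4me2 and 7.72 to 22.9 M for input, and a mTg H3K4me2 library had the fewest of all. H3K27ac peaks lay at 6 to 9 of 9 fibre genes in each list, with Myh7 of slow fibres marked only in Sol and Dia, and Alb, an albumin gene of liver, had a peak in no H3K27ac list. Summed H3K27ac of marker genes of each cell type differed with wheel running: in Ex against Sed the log2 levels of the 2 libraries were 3.59 and 3.39 against 4.61 and 4.17 for fibre genes, 3.18 and 3.59 against 1.95 and 2.29 for fibroblast genes, 0.75 and 1.12 against -0.77 and -0.76 for macrophage genes, 0.22 and 0.46 against -0.74 and -0.72 for adipocyte genes, and -1.81 and -2.15 against -1.39 and -1.23 for the satellite cell gene Pax7. Endothelial genes were at 3.56 and 3.65 against 3.28 and 3.17. Only genes with a called peak enter these sums. Of 4 adipocyte genes 3 had one in Ex and 1 in Sed, of 4 macrophage genes 4 and 3, and of 9 fibre genes 8 and 7. In mTg against Wt, fibre genes were at 5.13 and 5.22 against 5.28 and 5.25, fibroblast genes at 1.38 and 1.64 against 2.64 and 2.20, macrophage genes at -0.28 and -0.07 against 0.83 and 0.56, endothelial genes at 2.71 and 2.89 against 2.55 and 2.39, and Pax7 at -1.15 and -1.30 against -2.18 and -2.21. Adipocyte genes were at -0.71 and -0.65 in mTg against -0.39 and -0.68 in Wt, which overlap. Macrophage genes with a peak numbered 3 in mTg and 4 in Wt, and fibre genes 7 and 8. The part of these shifts in the results on Ex and mTg below was not tested. In mTg against Wt, H3K4me2 did not follow the H3K27ac differences: at the regions lower in mTg in H3K27ac its median difference was 0.18 (log2, 82 regions), whereas in Ex against Sed the corresponding median was -0.11 (548 regions). H3K4me2 values on mTg are therefore given for libraries labelled mTg or Wt.

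All 10 genes had at least 1 peak of each mark in each of the 8 groups. For H3K27ac this was common, as 9525 genes had a peak in all 8 groups. The amount differed widely between the 10 genes. Tbc1d1 and Pik3r1 carried the most acetylation. Tbc1d1 had 13 to 24 H3K27ac peaks covering 35.7 kb in Dia to 84.9 kb in EDL, and Pik3r1, the p85α regulatory subunit of phosphoinositide 3-kinase, had 21 to 42 peaks covering 47.0 kb in Dia to 65.6 kb in Wt. Covered length of Pik3r1 stood at the 99.2nd to 99.9th percentile of genes with a peak. Prkag3 was the most variable, from 1.46 kb in Sol, the 20.9th percentile, to 15.0 kb in Quad. Peaks of the 10 genes were less often annotated as promoter than those of all genes, at 2.97% against 11.2% of the Quad H3K27ac list. They were more often annotated inside genes, at 70.3% against 56.9%. Each peak is given 1 place, and the wide Quad peaks over the Prkaa2 and Prkag3 start sites were named intergenic. Pik3r1 with 32 and Tbc1d1 with 24 of the 101 Quad peaks weigh most in these shares.

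Most start sites were acetylated in most groups. Of the 9 genes with an entry in the RefSeq promoter table (Insr had none), a H3K27ac peak lay over at least 1 start site in 8 of 8 groups for Akt2, Irs1, Irs2, Pik3r1, Prkaa2, Prkab2, Prkag3 and Tbc1d4. That of Tbc1d1 at position 64160260 of chromosome 5 was covered in 7 groups, Dia being the exception. The other Tbc1d1 start site, at 64230357, was covered in 3 groups, at the 43.6th to 61.2nd percentile of the list. A further site of Akt2 (27596830) and one of Pik3r1 (101692630) were covered in 7 groups. No share over all start sites stands beside these counts, so they describe these genes only. Among the strongest Quad peaks per kb of each gene, the highest was that of Prkaa2, the α2 catalytic subunit, whose Quad peak at chr4:105107176-105115089 stood at the 99.5th percentile of the list with 8.07 ± 0.16 per kb (log2, SD, n = 2). Those of the other genes were chr8:3278382-3280314 in Insr (5′ UTR, 7.32 ± 0.21), chr1:82281058-82292534 in Irs1 (3′ UTR to start site, 7.36 ± 0.33), chr8:11023422-11026058 upstream of Irs2 (6.95 ± 0.20), chr13:101766000-101770275 at the Pik3r1 promoter (7.30 ± 0.33) and chr7:27590737-27597912 in Akt2 (6.85 ± 0.17). For Tbc1d1 it was chr5:64178532-64183172 in an intron (7.38 ± 0.31), for Tbc1d4 chr14:101608581-101609606 at the promoter (6.84 ± 0.18), for Prkab2 chr3:97657317-97661721 (7.32 ± 0.18) and for Prkag3 chr1:74743887-74756688 (6.59 ± 0.15). Prkag3 thus had the lowest peak level per kb of the 10 genes in Quad, although its block was the widest of these peaks. Irs2, the substrate that relays insulin and cytokine signals, had its start site under a peak that the annotation gave to the neighbouring transcript 9530052E02Rik in 7 groups and to Irs2 in Ex, so its summed levels below hold that peak in Ex and not elsewhere.

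To set whole genes side by side, the acetylation of all peaks of a gene was summed and expressed as log2 relative to the median of the 9525 genes with a peak in all 8 groups. Each list had been normalized on its own, so no test was made between lists. A difference was counted when it passed 2-fold and the 2 libraries of a group did not overlap those of the other. The choice to compare summed levels was made after the data had been examined. Prkag3 and Tbc1d4 varied most, with ranges over the 16 libraries of 3.83 and 3.04 log2 units, at the 94.4th and 88.0th percentile of all genes. Pik3r1 varied least, by 0.79, at the 13.5th percentile.

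**Figure D1:**
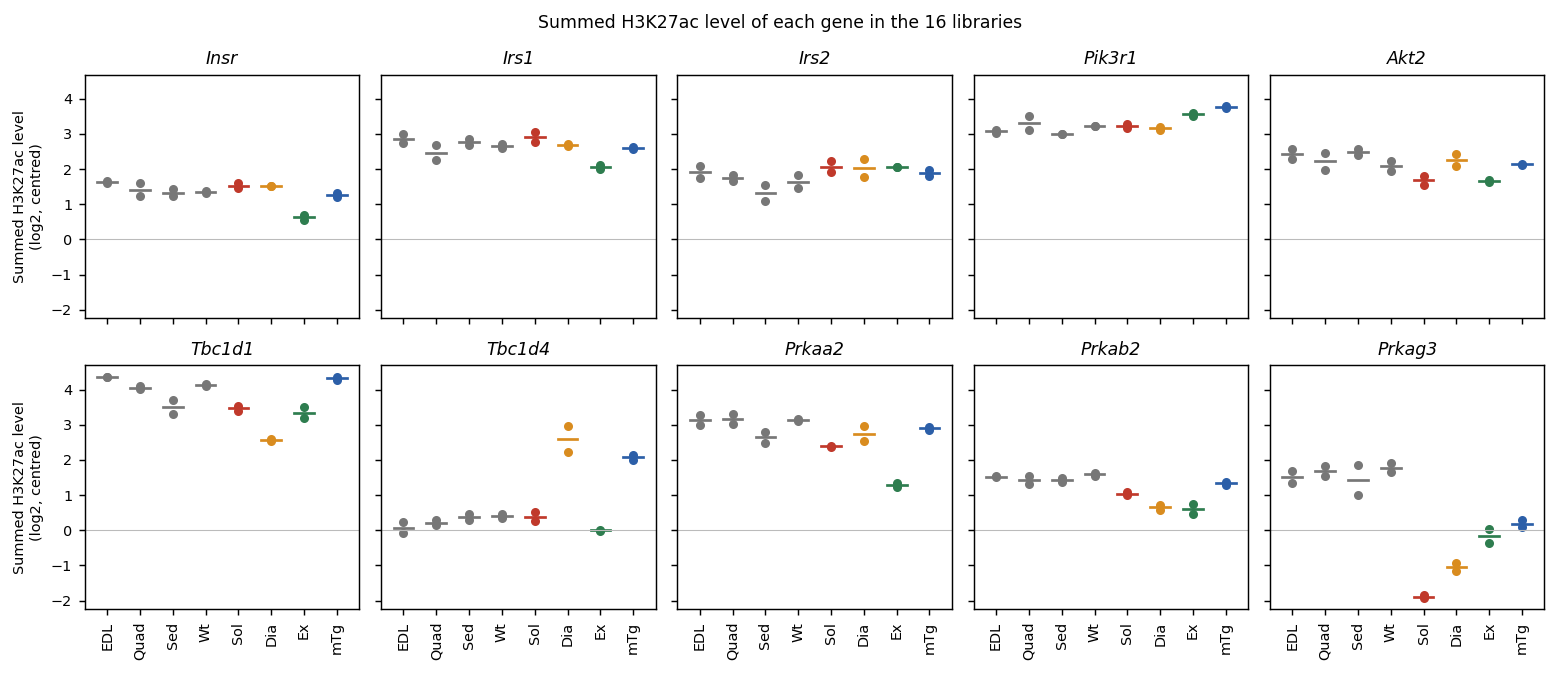
Summed H3K27ac level of each gene (log2, relative to the median gene) in the 2 libraries of each of the 8 groups. Prkag3 is low in Sol, Dia, Ex and mTg, Tbc1d4 is high in Dia and mTg, and Prkaa2 is low in Ex.

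Prkag3, the γ3 AMPK subunit, separated the muscles most. Its level was 1.34 and 1.70 in EDL, 1.82 and 1.55 in Quad, 1.85 and 1.01 in Sed and 1.64 and 1.90 in Wt, against -1.85 and -1.93 in Sol and -1.16 and -0.92 in Dia. Ex lay between at 0.03 and -0.37, as did mTg at 0.10 and 0.28. The 4 untreated hindlimb groups other than Sol overlapped their neighbours in this order, whereas Sed, mTg, Ex, Dia and Sol followed one another without overlap. Sol was 11.9-fold below Quad (log2 difference -3.58), Dia 6.62-fold (-2.73), Ex 3.04-fold below Sed (-1.60) and mTg 2.99-fold below Wt (-1.58).

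The summed level grows with covered length, and the groups differed in that length. Per kb, the strongest Prkag3 peak stood at 6.59 in Quad, 6.58 in Dia and 6.23 in Sol (log2, not centred between the separately normalized lists). Within its own list that peak was at the 78.2nd, 60.5th and 62.9th percentile, in the same order. Its level was 5.83 in Ex against 6.93 in Sed (47.5th and 79.7th percentile). In mTg it was 6.00 against 6.43 in Wt (71.7th and 87.2nd). In EDL and Quad a single block of acetylation ran over the Prkag3 start site and several kb to either side, whereas in Sol one short peak covered the start site. Covered length was 15.0 kb in Quad, 12.5 kb in EDL, 13.8 kb in Sed and 14.8 kb in Wt, against 1.46 kb in Sol, 3.66 kb in Dia, 6.55 kb in Ex and 5.87 kb in mTg. H3K4me2 of Prkag3 was likewise longer in Quad than in Sol or Dia, at 8.11 kb in Quad, 2.96 kb in Sol and 2.33 kb in Dia. It covered 6.55 kb in EDL and 7.68 kb in Sed, but only 2.23 kb in the libraries labelled Wt. Untreated quadriceps groups thus did not share one length of this mark. Its summed level was 1.23 and 1.13 in Quad against -0.70 and -0.77 in Sol and -0.57 and -0.80 in Dia, Sol and Dia overlapping. In Ex it was 0.01 and 0.07 against 0.67 and 0.73 in Sed, a difference of -0.65 that did not reach 2-fold. The libraries labelled mTg stood at -0.20 and 0.08, above -0.89 and -0.72 in those labelled Wt, the opposite direction to H3K27ac.

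**Figure D2:**
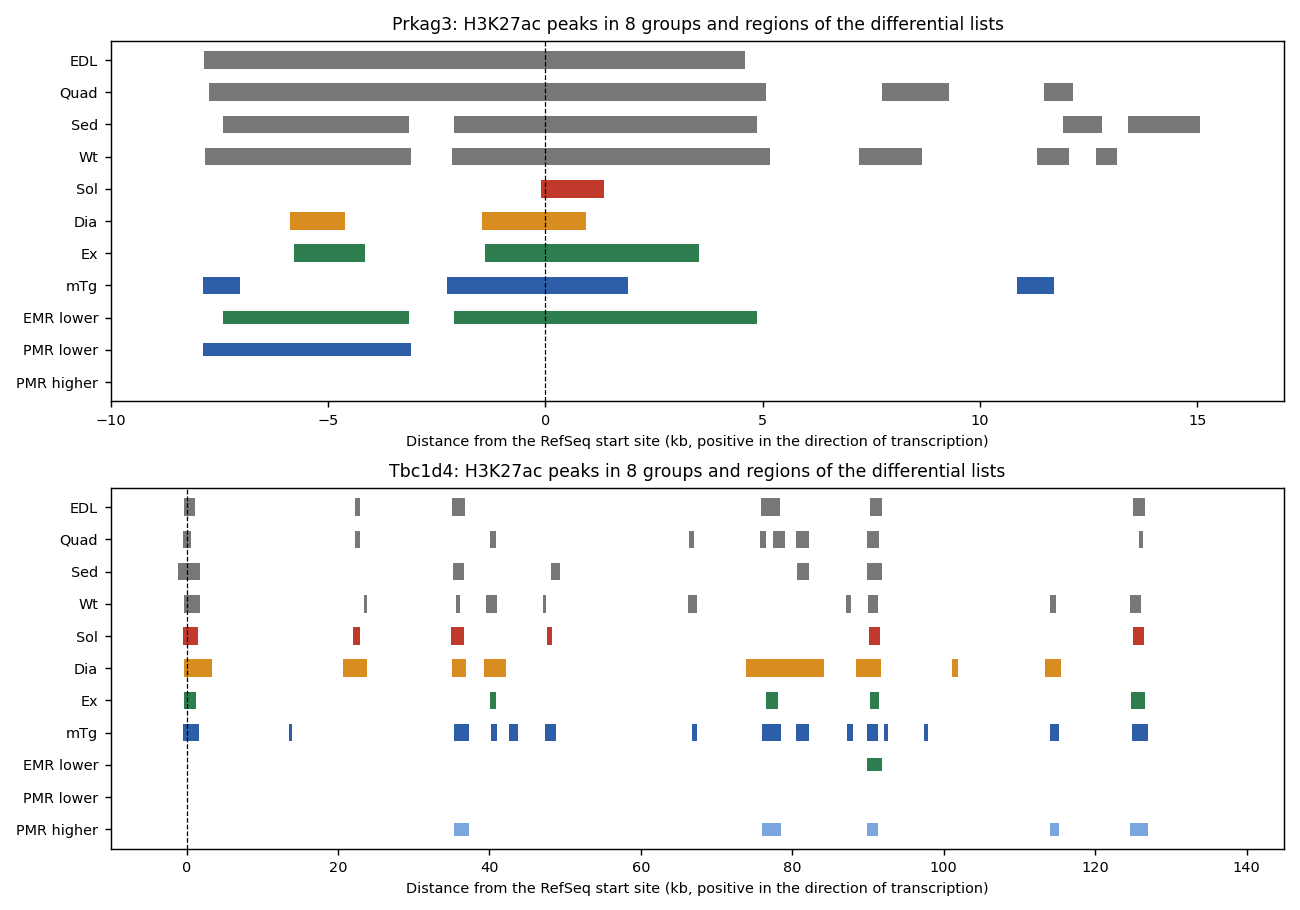
H3K27ac peaks of Prkag3 (top) and Tbc1d4 (bottom) in the 8 groups, and the regions deposited as lower or higher in Ex (EMR) or mTg (PMR), against distance from the RefSeq start site (kb, positive in the direction of transcription, dashed line at the start). Grey marks EDL, Quad, Sed and Wt, red Sol, orange Dia, green Ex and blue mTg. The Prkag3 block is shorter in Sol, Dia, Ex and mTg, and Tbc1d4 has more or wider peaks along the gene in Dia and mTg.

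Among the other AMPK subunits, Prkaa2 was low in Ex alone. Its summed H3K27ac level was 2.98 and 3.27 in EDL, 3.31 and 3.02 in Quad, 3.17 and 3.11 in Wt, 2.94 and 2.86 in mTg and 2.54 and 2.96 in Dia. It was 2.40 and 2.38 in Sol, 2.80 and 2.49 in Sed and 1.35 and 1.23 in Ex, which overlapped no other group and stood 2.56-fold below Sed (-1.36). Prkab2, the β2 subunit, ranged from 0.46 to 1.64 over all libraries and passed 2-fold in no comparison, the nearest being Ex at 0.76 and 0.46 against Sed at 1.48 and 1.38.

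The pair of Rab GTPase-activating proteins differed in opposite directions in the diaphragm. Tbc1d4, also known as AS160, was at 2.23 and 2.95 in Dia and 2.14 and 2.01 in mTg, while the other 6 groups lay between -0.08 and 0.52, each overlapping its neighbour in the order of levels though not every other group. Dia was 5.19-fold above Quad (2.38) and mTg 3.18-fold above Wt (1.67, and 0.94 to 2.72 over the alternative settings). Tbc1d1 was at 2.53 and 2.58 in Dia against 4.01 and 4.11 in Quad, 2.84-fold lower (-1.50, and -3.44 to -1.10 over the alternative settings). Its other groups were 4.35 and 4.37 in EDL, 4.26 and 4.37 in mTg, 4.09 and 4.17 in Wt, 3.70 and 3.31 in Sed, 3.39 and 3.54 in Sol and 3.18 and 3.50 in Ex. EDL and mTg were therefore the high groups for Tbc1d1 and Dia the low one. Covered length of Tbc1d4 was 28.2 kb in Dia and 19.4 kb in mTg, against 9.19 kb in Quad and 10.3 kb in Wt. Summed H3K4me2 of Tbc1d4 did not follow, at 1.57 and 1.68 in Dia against 1.47 and 1.41 in Quad (0.19). The libraries labelled mTg stood at 1.03 and 0.90 for Tbc1d4, below 1.29 and 1.46 in those labelled Wt (-0.41). H3K4me2 of Tbc1d1 was lower in Dia, as H3K27ac was, at 1.38 and 1.44 against 2.34 and 2.41 in Quad (-0.97).

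The upstream members differed less. Insr, the receptor, lay between 1.21 and 1.65 outside Ex and at 0.55 and 0.71 in Ex. Irs1, a receptor substrate, was at 1.99 and 2.13 in Ex against 2.68 and 2.85 in Sed, and Akt2, the AKT isoform that serves glucose uptake, at 1.62 and 1.70 against 2.57 and 2.39. Pik3r1 was at 3.52 and 3.60 in Ex against 3.00 and 3.00 in Sed, and at 3.72 and 3.79 in mTg against 3.21 and 3.22 in Wt. In these 4 genes the Ex libraries did not overlap Sed, but no difference reached 2-fold. Irs2 was at 2.05 and 2.06 in Ex against 1.54 and 1.08 in Sed, where the naming of the start site peak differed.

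Counted over the 10 genes, 0 differed beyond 2-fold between EDL and Quad (7.15% of all genes), 1 between Sol and Quad (15.9%), 3 between Dia and Quad (16.5%), 2 between Ex and Sed (20.3%) and 2 between mTg and Wt (18.8%). These shares are near those of all genes, so the list as a whole did not stand out, and the values above describe single genes. For H3K4me2 the counts were 0 between EDL and Quad (2.54%), 2 between Sol and Quad (5.62%), 3 between Dia and Quad (6.54%), 0 between Ex and Sed (3.78%) and 1 between the libraries labelled mTg and Wt (7.26%). Besides Prkag3 they were Prkaa2 in Sol (-1.15) and Dia (-1.06) and Irs2 in Dia (-1.46) and mTg (-1.90).

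Single regions present in both lists of a pair were matched at a reciprocal overlap of at least 50%. For H3K27ac, differences beyond 2-fold without overlap were found at 0 of 39 regions between EDL and Quad (0.648% of all shared regions), 1 of 46 between Sol and Quad (3.59%), 0 of 45 between Dia and Quad (4.2%), 2 of 35 between Ex and Sed (2.93%) and 2 of 39 between mTg and Wt (4.64%). Among the untreated quadriceps groups the counts were 0 of 46 for Quad and Sed (1.32%), 1 of 56 for Quad and Wt (1.46%) and 0 of 41 for Sed and Wt (0.509%). The H3K4me2 counts were 0 of 39 (0.482%), 2 of 26 (1.85%), 0 of 22 (1.55%), 0 of 24 (0.0971%) and 1 of 14 (0.729%) for the 5 pairs in the same order. Matching leaves out regions that differ much in width or are missing from one list: Prkag3 had no shared H3K27ac region between Sol or Dia and Quad, and Tbc1d4 none between Dia and Quad. The counts depend on the matching: over the 5 pairs, H3K27ac gave 5 regions at the stated settings, 0 with peaks at adjusted p below 0.001 and 29 with levels not divided by width.

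The shared regions that did differ were annotated in introns or upstream of Tbc1d1, Tbc1d4 and Irs2, including a region over a start site of Tbc1d1. In Tbc1d4, chr14:101482250-101484297 was at 0.87 and 0.53 in mTg against -0.49 and -0.57 in Wt (log2 per kb relative to the median region), a difference of 1.23. A second Tbc1d4 region, chr14:101493923-101495183, was at -0.80 and -0.68 against -1.83 and -1.74 (1.05). Both are intronic and distal to the start site.
In Irs2, chr8:11024180-11026474, the region of the ERR and E-box letters shown above, was at -0.95 and -1.33 in Ex against 0.31 and -0.31 in Sed (-1.14). The Irs2 region chr8:11043242-11045479 was at -1.44 and -2.49 against -0.33 and -0.68 (-1.46). The Ex libraries of both were below both Sed libraries, but both Irs2 differences fell short of 2-fold without Ex replicate 2. The count of 2 for Ex against Sed became 0 without Ex replicate 2 and 5 without Ex replicate 1 or Sed replicate 2.
In Tbc1d1, chr5:64317206-64318543 was at -1.20 and -0.92 in Sol against -2.29 and -2.15 in Quad (1.16). A Tbc1d1 region of H3K4me2, chr5:64179767-64181634, was lower in Sol at -0.66 and -0.57 against 0.67 and 0.60 in Quad (-1.26). These 2 single regions differed in opposite directions, but the gene as a whole did not. Over the 5 shared H3K27ac regions of Tbc1d1 in this pair the median difference was -0.49, with 2 positive. Over its 5 shared H3K4me2 regions the median was -0.21, also with 2 positive. Summed levels of Tbc1d1 were lower in Sol for both marks, by -0.59 for H3K27ac and -0.85 for H3K4me2, short of 2-fold. The other 3 Tbc1d1 regions beyond 2-fold were chr5:64156295-64157191 (H3K4me2, Sol against Quad, -1.01), chr5:64229628-64231448 (H3K4me2, libraries labelled mTg against Wt, 1.01) and chr5:64269830-64270458 (H3K27ac, Quad against Wt, -1.01), the last a difference between untreated groups. Of these, chr5:64229628-64231448 was annotated as intron but covered the Tbc1d1 start site at 64230357.

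**Figure D3:**
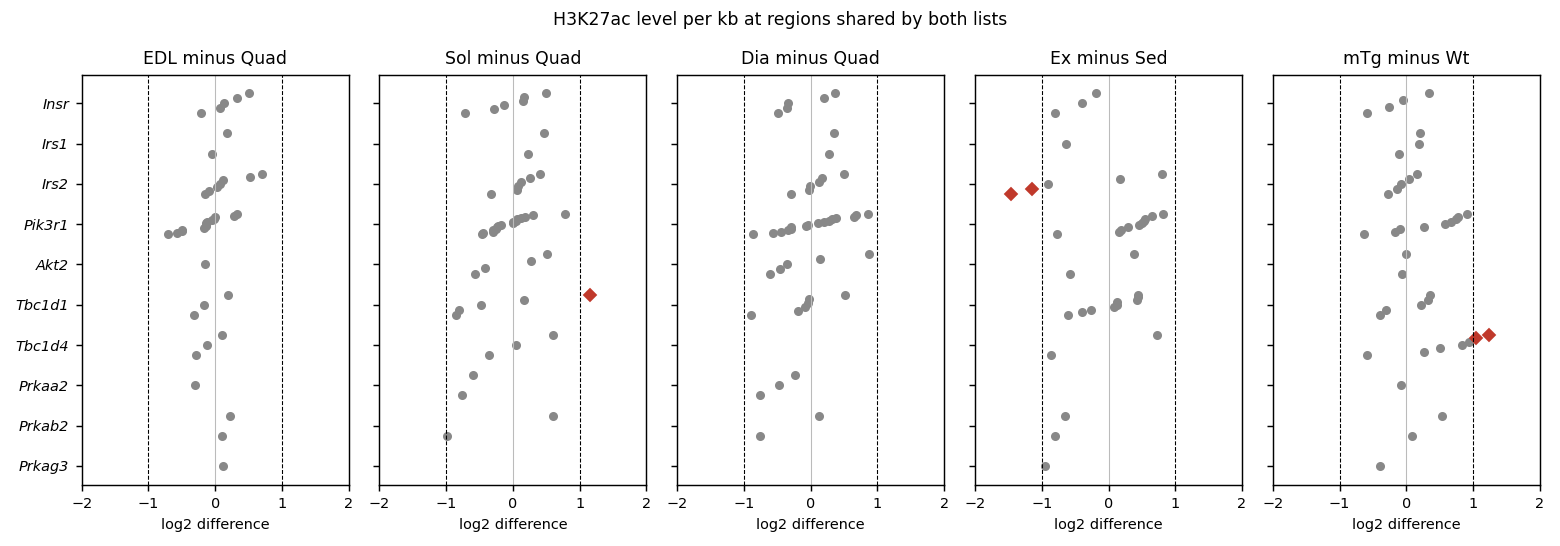
Differences in H3K27ac level at regions shared by both lists of a pair (log2, per kb), 1 point per region, by gene, with a panel for each comparison. Diamonds mark the regions beyond 2-fold whose libraries did not overlap, which lie at Tbc1d1 in Sol, Irs2 in Ex and Tbc1d4 in mTg.

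The deposited lists of exercise-modified regions (EMRs) and PGC1α-modified regions (PMRs) hold regions selected for differing in H3K27ac, so their values are a description. Hypo EMRs (lower in Ex) were found at 5 of the 10 genes, Irs2, Akt2, Tbc1d4, Prkaa2 and Prkag3, and hyper EMRs at 1, Pik3r1. Of the 14815 genes with an H3K27ac peak in Ex or Sed, 10.6% had a hypo EMR and 2.34% a hyper EMR. Hyper PMRs (higher in mTg) were found at Pik3r1 and Tbc1d4, 2 of 10, and a hypo PMR at Prkag3, 1 of 10. Of the 15286 genes with a peak in mTg or Wt, the shares were 9.22% and 4.38%. Insr, Irs1, Tbc1d1 and Prkab2 had no EMR or PMR. The shares are not matched for covered length, which in Sed stood at the 79.5th to 99.9th percentile for the 10 genes. In none of the 23 regions did the libraries of the 2 groups overlap, which selection of the regions on these same libraries favours. With each library centred on its median over both lists of the contrast, the hypo EMRs moved to between -0.35 and -0.02, a shift built into that centring since most listed EMRs were hypo, and the hypo PMR to -1.29.

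Prkag3 held the 2 largest differences among the hypo EMRs of the 10 genes. Over the start site of Prkag3, chr1:74744092-74751063 was at 8.81 and 8.41 in Ex against 9.82 and 9.23 in Sed (log2 tags as deposited), a difference of -0.91. The Prkag3 region upstream, chr1:74752105-74756362, differed by -0.86, and nearly the same bases in the PMR list, chr1:74752039-74756827, were at 7.38 and 7.13 in mTg against 8.14 and 8.45 in Wt (-1.04). Prkag3 was thus lower in both, over 4258 shared bases.
In Prkaa2, one region of 20875 bases, chr4:105093898-105114773, spanned the start site and intron 1 and was at 10.64 and 10.56 in Ex against 11.52 and 11.29 in Sed (-0.81). At Prkaa2 no PMR was listed.

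The insulin branch differed by contrast. Akt2 was lower in Ex at chr7:27623993-27627909, in intron 4 (-0.81). Irs2 was lower at 3 regions upstream of its start site, chr8:11012899-11013937 (-0.58), chr8:11023972-11026474 (-0.72) and chr8:11148244-11150266 (-0.61).
Pik3r1 had higher regions in both contrasts, at different places, given to it by the nearest start site. Its 7 hyper PMRs differed by 0.55 to 1.56, and the largest, the intergenic chr13:101994268-101997193, lay at -227513 bases from the annotated start site and was at 8.17 and 8.18 in mTg against 6.33 and 6.89 in Wt, 2.96-fold. One of the 7 covered the internal Pik3r1 start site at chr13:101689826-101695357, with 9.04 and 8.95 against 8.10 and 8.16 (0.87). The other 5 were chr13:101717001-101721067 (0.93), chr13:101761177-101762239 (0.55), chr13:101991590-101992740 (0.55), chr13:102013539-102016246 (1.29) and chr13:102211145-102213382 (0.58), the first 2 intronic and the rest intergenic. These intergenic ones lay at -223948, -246675 and -444046 bases. The 2 hyper EMRs of Pik3r1, at chr13:102030748-102031774 and chr13:102070498-102072204, differed by 0.52 and 0.59. Both were intergenic, at -263044 and -303134 bases from the annotated start site. Whether regions this far away act on Pik3r1 was not tested.

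Tbc1d4 had a region that was lower in one contrast and higher in the other. In intron 1, chr14:101517315-101519281 was at 6.65 and 6.56 in Ex against 7.39 and 7.17 in Sed (-0.68). The overlapping PMR, chr14:101517828-101519336, was at 7.33 and 6.98 in mTg against 6.48 and 6.27 in Wt (0.78). The overlap was 1454 bases, and neither pair of groups overlapped. Of all 2280 hypo EMRs, 66 (2.89%) overlapped a hyper PMR and 198 (8.68%) a hypo PMR, which was 24.2% of the hypo PMRs. The other 4 hyper PMRs of Tbc1d4, all intronic, were chr14:101482250-101484588 (1.02), chr14:101493923-101495183 (0.51), chr14:101530679-101533232 (0.74) and chr14:101571874-101573921 (0.68).

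**Figure D4:**
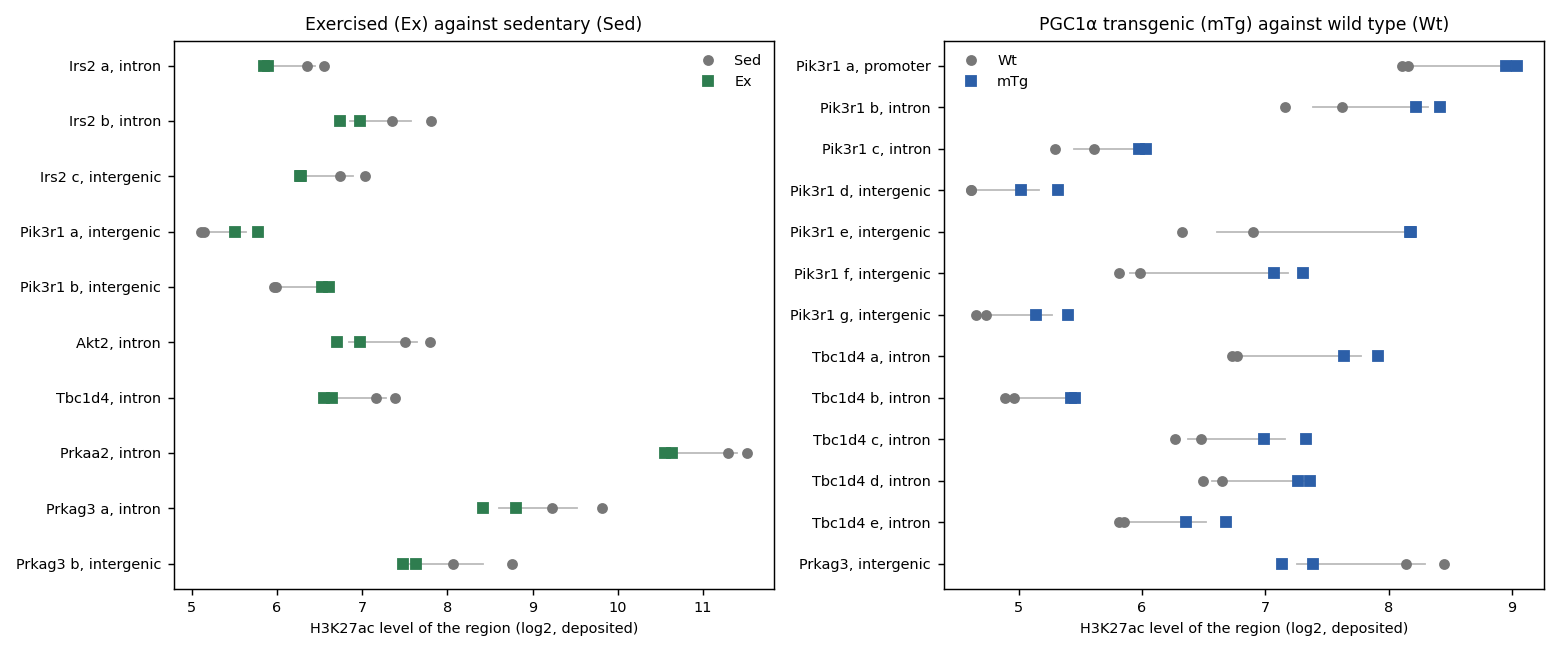
H3K27ac level (log2, as deposited) of every EMR (left) and PMR (right) of the 10 genes in the 2 libraries of each group. Letters number the regions of a gene, and the line joins the group means. Regions named for Irs2, Akt2, Tbc1d4, Prkaa2 and Prkag3 are lower in Ex. Those named for Pik3r1 by the nearest start site are higher in Ex and mTg, and those for Tbc1d4 are higher in mTg.

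Other readouts at these regions came from 1 library or 1 pooled list each. H3K4me2 peaks overlapped 58.4% of the H3K27ac peaks of the 10 genes in Quad (64.1% of all), 56.3% in EDL (71.5%), 49.4% in Dia (60.0%) and 48.2% in Sol (64.1%). ATAC peaks of control Quad overlapped 44 of 101 (43.6% against 57.2%). Peaks of MED1, a Mediator subunit found at active enhancers, overlapped 2 of 101 in Quad (3.76% of all), 0 of 87 in EDL (1.12%), 2 of 79 in Dia (4.16%) and 3 of 83 in Sol (5.34%). The 2 in Quad lay at the start sites of Prkaa2 (chr4:105110015-105110225) and Prkag3 (chr1:74748546-74748756), and in Sol the genes were Insr, Tbc1d1 and Tbc1d4. The Sol MED1 peak of Tbc1d4 (chr14:101517665-101517875) fell in the region of opposite direction. NFAT peaks overlapped 0 of 101 in Quad and 4 of 83 in Sol, at Pik3r1 and Tbc1d1, where all H3K27ac peaks gave 0.0464% and 3.02%, from lists of 485 and 39661 peaks, a gap in list size that sets how far those counts can be compared. ATAC peaks of control Quad lay in 7 of 8 hypo EMRs of the 10 genes (77.5% of all hypo EMRs), 0 of 2 hyper EMRs (28.8%), 7 of 12 hyper PMRs (42.7%) and 1 of 1 hypo PMRs (66.0%).

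The genes whose summed H3K27ac followed each member most closely over the 16 libraries were named for the 4 members with the highest correlation. Camk2a and Epcam were nearest to Prkag3 (Pearson's r = 0.983 for both), 1700061J23Rik and Met to Prkaa2 (0.981 and 0.977), Gyg and Smpx to Insr (0.969 and 0.957), and Lbx1 and D830005E20Rik to Prkab2 (0.964 and 0.961). The points share library, depth and normalization within a list, and the best of 9525 genes is high by selection.

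The wider pathway list of 47 other insulin, AMPK and related genes gave 10 genes with a hypo EMR (21.3%). The share was 10.6% among genes with an H3K27ac peak in Ex or Sed, not matched for covered length. The 10 included Prkab1 and Prkag2, further AMPK subunits, Rictor of the mTOR complex that phosphorylates AKT, Rab10, a Rab target of TBC1D4, and Igf1r. None had a hyper EMR (2.34% of genes with a peak), 5 had a hyper PMR (10.6% against 9.22%) and 3 a hypo PMR (6.38% against 4.38%). Rictor was lower in both, by -1.21 in Ex and -1.31 in mTg. Acacb, the acetyl-CoA carboxylase of muscle mitochondria that AMPK inhibits, was lower in Ex (-0.78 and -0.94) and higher in mTg (0.74 and 0.94). Mtor (1.02) and Foxo3 (1.00 at the larger region) were higher in mTg.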

How the data were processed

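Histone marks were measured by chromatin immunoprecipitation and sequencing (75-base single-end reads). The authors aligned ChIP reads to mm10 with Bowtie, keeping uniquely mapped reads (ATAC reads with Bowtie2), kept 1 tag per position and called peaks over input on both replicates together with HOMER and DESeq2 (2-fold, FDR 0.05). The deposited tag columns hold log2 values, taken here as a regularized log, which shrinks low values. The adjusted p-value columns and the ratio or fold columns deposited beside them were used as filters only. The authors' ATAC and MED1 or NFAT lists carry a tag signal, a fold over local background and a peak score. The deposited comparison columns (fold changes and p-values of Ex against Sed and mTg against Wt) were not used as results. 5 lists in another build were not used.

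Each list was normalized separately, so lists were set side by side with no test, and with 2 libraries per group an exact permutation test could not pass 0.05. Levels were divided by region width, regions matched at 50% reciprocal overlap and libraries centred on their median. Calls needed over 2-fold and no overlap of libraries. The paper describes biological duplicates. For EDL, Sol and Dia, where each sample pooled 3 animals, spread between 2 libraries is therefore between pools and not between single animals. Matching was tested on simulated data. All 10 genes were described, with regions named as the strongest Quad peak, the promoter peak, every EMR and PMR and every called shared region. Genes and lists were chosen with earlier results of these data known. Python 3.11.15, numpy 2.4.6, pandas 2.3.3 and matplotlib 3.10.9 were used. Alternatives covered overlap, width, centring, peak threshold, distance and each replicate left out.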

Additional observations from a re-analysis of the deposited data

Results flagged for a closer look

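The Tbc1d4 region in intron 1 differed by -0.68 in Ex against Sed (chr14:101517315-101519281) and by 0.78 in mTg against Wt (chr14:101517828-101519336), every Ex library lying below both Sed libraries and every mTg library above both Wt libraries. The Acacb region upstream of the gene did likewise, at -0.78 in Ex (chr5:114150447-114157654) and 0.74 in mTg (chr5:114150369-114153809). The listed regions had been selected for differing in H3K27ac, and the difference between the 2 contrasts was not tested.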

How the results depend on the processing

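No paired analysis was possible because these results come from no test and replicate numbers name separate samples. Over the 5 pairs, shared H3K27ac regions beyond 2-fold numbered 5, and 1 at 80% overlap, 20 with matching on 1 base, 29 with levels not divided by width, 13 without centring, 0 with peaks at adjusted p below 0.001, and 3 to 8 with one library left out (3 without Ex replicate 2, 8 without Ex replicate 1, Quad replicate 1, Sed replicate 2 or Wt replicate 2). The H3K4me2 count of 3 became 1, 6, 8, 5 and 2 under the same settings, and 2 to 4. The share of all shared H3K27ac regions also went from 3.09% to 10.7% without division by width. The 8 summed levels beyond 2-fold became 11 within 50 kb, 11 with the strongest peak, 10 without centring and 8 with stricter peaks or any library left out, and no direction reversed. That of Tbc1d4 in mTg ranged from 0.94 to 2.72 and that of Tbc1d1 in Dia from -3.44 to -1.10. Of 10 EMRs, 1 remained at adjusted p below 0.001 and 6 within 50 kb, and of 13 PMRs, 8 and 5. With libraries centred over both lists of a contrast, hypo EMRs moved to between -0.35 and -0.02 and hyper EMRs to 1.07 and 1.15, since most listed regions were hypo EMRs, and PMRs kept their direction. Members with a H3K4me2 peak in all groups fell from 10 to 9 (Irs2). With the strongest peak in place of the sum, the correlation of Tbc1d4 with Pop7 went from 0.948 to -0.0196, and 19 others moved. Depth limits H3K4me2 of mTg most, at 6.41 M tags.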
